A study of Mus musculus with 6 samples.

Results

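The subunits of oxidative phosphorylation were followed as a group of 98 genes among the 28987 genes of the deposited table. They were chosen by gene symbol: protein-coding genes named for subunits of NADH dehydrogenase (complex I), succinate dehydrogenase (complex II), the cytochrome bc1 complex (complex III), cytochrome c oxidase (complex IV) and ATP synthase (complex V). The nuclear genome encodes 85 of them and the mitochondrial genome encodes 13. By complex, 35 nuclear and 7 mitochondrial genes belonged to complex I, 4 nuclear genes to complex II, 9 nuclear and 1 mitochondrial to complex III, 20 nuclear and 3 mitochondrial to complex IV, and 17 nuclear and 2 mitochondrial to complex V. Ndufa4 and Ndufa4l2 carry a complex I name and were counted with complex IV, where the Ndufa4 protein is now placed.

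RNA came from bone marrow of C57BL/6 mice in which CBL and RUNX1 mutations model myelodysplastic syndrome. Mutant cells were sorted for every group, so no group here is free of the mutations, and the labels name no age, dose or time. The stem and progenitor fraction (HSCPs) was enriched on CD117, the receptor encoded by Kit, before sorting. The other population was mutant myeloid cells bearing Ly6G, a surface protein of maturing neutrophils. Each population was taken after vehicle or after Mdivi-1, a compound described as an inhibitor of the mitochondrial fission GTPase Drp1. HSCPs gave 1 library per treatment and Ly6G+ cells gave 2. The labels speak of individual mice but do not say which mouse gave which library. The p-values therefore rest on the spread among these libraries alone, which may be technical.

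Electrons from NADH enter the respiratory chain at complex I and those from succinate at complex II. Coenzyme Q carries them to complex III and cytochrome c carries them on to complex IV, which reduces oxygen. Complexes I, III and IV pump protons, and ATP synthase uses the gradient to make ATP. Complex II is the only one of these built from nuclear genes alone, so the other complexes need transcripts from both genomes. Mature neutrophils are known for few mitochondria and reliance on glycolysis, whereas their precursors hold more.

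The sort labels were reflected in the data: Kit averaged 68.6 TPM in HSCP and 10.7 TPM in Ly6G+ libraries, and Ly6g averaged 138 and 772 TPM. TPM, the unit of the deposited values, is a length-corrected share of a library's transcripts, so levels can be set beside each other across genes. Dnm1l, the gene of Drp1, averaged 33.0 TPM in HSCP and 23.8 TPM in Ly6G+ libraries. The HSCP libraries also held neutrophil transcripts: 12 of 12 neutrophil markers were detected, summing to between 91749 and 100422 TPM, against 269724 to 280677 TPM in Ly6G+ cells. Stem and progenitor markers summed to 383 to 445 TPM and 72.3 to 106 TPM respectively. S100a8 and S100a9 alone took 7.06% to 7.70% of HSCP TPM and 19.7% to 20.9% of Ly6G+ TPM, which lowers the share left for other genes. Depth is unknown, because TPM carries no read totals.

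Several sequences bear on how the values below can be read. The first is the whole mt-Atp8 transcript, at chrM:7766-7969 on the plus strand of GRCm38 (the mm10 assembly), shown because mt-Atp8 went against the rest of the mitochondrial genome between populations. Its last 43 bases, in capitals, are also the first bases of mt-Atp6, which starts at position 7927, so reads from that stretch fit both genes.
mt-Atp8: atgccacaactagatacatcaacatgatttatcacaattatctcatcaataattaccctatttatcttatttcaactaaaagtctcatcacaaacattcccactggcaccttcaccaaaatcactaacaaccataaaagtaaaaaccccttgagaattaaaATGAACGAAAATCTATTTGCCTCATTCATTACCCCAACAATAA

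The next 2 sequences belong to genes with letter-perfect copies elsewhere in the genome. The mt-Nd4l transcript lies at chrM:9877-10173 on the plus strand. All but its last 3 bases, in capitals, recur without a mismatch in the nuclear pseudogene Gm10222 at chr1:24612407-24612700. Atp5g2 encodes a copy of the c subunit, the rotor ring of ATP synthase, at chr15:102662864-102672352 on the minus strand. Of its 441-base coding transcript the first 240 bases are shown. All 441 bases recur with 0 differences in the single-exon pseudogenes Gm10231, at chr17:5816200-5816640, and Gm10175, at chr7:23946792-23947232.
mt-Nd4l: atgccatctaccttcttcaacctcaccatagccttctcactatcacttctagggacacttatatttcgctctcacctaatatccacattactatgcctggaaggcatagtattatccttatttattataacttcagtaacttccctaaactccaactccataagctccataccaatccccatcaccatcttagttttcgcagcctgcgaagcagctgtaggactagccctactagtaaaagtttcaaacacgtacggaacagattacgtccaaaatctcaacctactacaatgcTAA
Atp5g2: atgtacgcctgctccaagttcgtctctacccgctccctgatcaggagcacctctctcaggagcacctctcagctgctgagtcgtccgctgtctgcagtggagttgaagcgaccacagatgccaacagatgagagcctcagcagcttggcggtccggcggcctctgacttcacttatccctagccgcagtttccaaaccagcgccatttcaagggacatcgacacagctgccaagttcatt

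The deposited values of these genes and their copies were as follows. Atp5g2 was listed at 0 TPM in all 6 libraries. Gm10231 was listed at 585 and 615 TPM in HSCP vehicle and Mdivi-1, at 189 and 206 TPM in Ly6G+ vehicle, and at 163 and 97.8 TPM in Ly6G+ Mdivi-1. Gm10175 was listed at 0 everywhere except 48.7 TPM in the second Ly6G+ Mdivi-1 library. Over its annotated transcripts, 59.8% of the 31-base words of Atp5g2 occur in no other annotated gene. Why its row was at 0 was not tested, and that row was not read as a measure of the gene. The rows of mt-Nd4l and Gm10222 held the same value in 6 of 6 libraries, from 758 to 2661 TPM. Ndufb4, an accessory subunit of complex I, has a pseudogene on chromosome 15, Ndufb4c, whose 390 bases equal its coding part with 0 differences. Ndufb4 was listed at 12.6 to 31.3 TPM and Ndufb4c at 132 to 188 TPM. Of the 85 nuclear genes, 74 have at least 80% of their 31-base words in no other annotated gene. In 5 mitochondrial genes (mt-Co2, mt-Co3, mt-Atp6, mt-Nd4l and mt-Nd3) the figure is under 2%, because the nuclear genome carries copies of mitochondrial DNA. Of the annotated copies that share nearly all words of these 5, only Gm10222, that of mt-Nd4l, has a row in the deposited data.

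**Figure D1:**
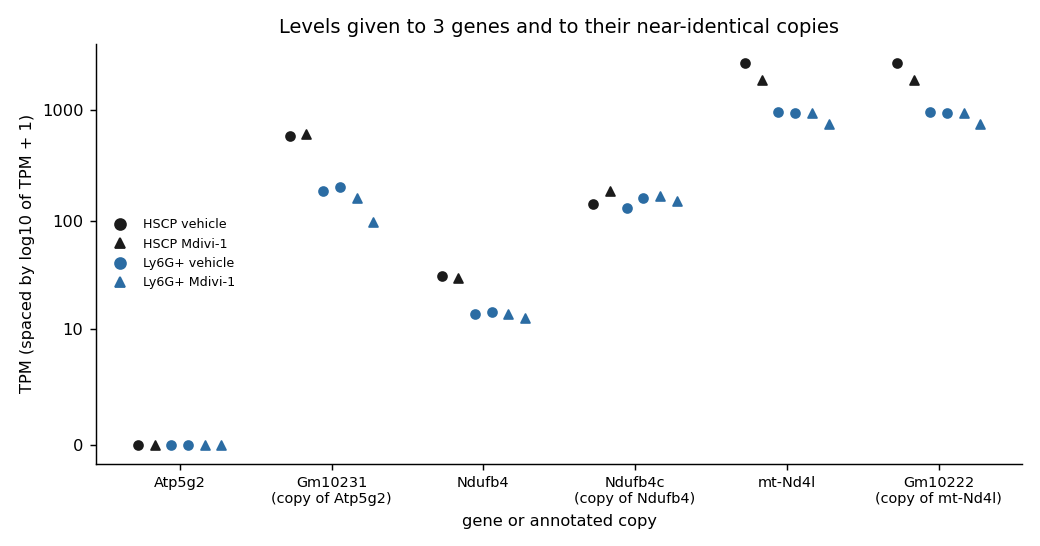
TPM of Atp5g2, Ndufb4 and mt-Nd4l and of a near-identical annotated copy of each, on an axis spaced by log10 of TPM + 1, with 1 point per library. Atp5g2 sits at 0 in every library while Gm10231 reaches 615 TPM, Ndufb4c lies above Ndufb4, and mt-Nd4l and Gm10222 coincide.

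Oxidative phosphorylation transcripts took a larger share of HSCP libraries than of Ly6G+ libraries, from both genomes. The 85 nuclear genes together reached 20205 and 20976 TPM in HSCP vehicle and Mdivi-1. They reached 11478 and 11947 TPM in Ly6G+ vehicle and 11580 and 11292 TPM in Ly6G+ Mdivi-1. The groups did not overlap, and the mean in Ly6G+ cells was 0.562 times that in HSCPs. The 13 mitochondrial genes together reached 40402 and 35712 TPM in HSCP, 24154 and 22901 TPM in Ly6G+ vehicle, and 24266 and 22740 TPM in Ly6G+ Mdivi-1. These groups did not overlap either, and the ratio of the means was 0.618. Erythroid markers, which also summed higher in HSCPs, were at 3470 and 3595 TPM there and 1513 to 2021 TPM in Ly6G+ libraries, and eosinophil markers at 646 and 359 against 56.4 to 67.2 TPM. The part of these cells and of the neutrophil transcripts in the difference was not tested. In bulk samples fewer cells with a transcript and less of it per cell cannot be told apart.

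Each complex had its own ratio of Ly6G+ to HSCP. For nuclear genes it was lowest in complex V at 0.516, followed by complex III at 0.532, complex IV at 0.572, complex II at 0.587 and complex I at 0.629. For mitochondrial genes it was 0.482 for mt-Cytb, the single mitochondrial gene of complex III, 0.526 for complex I, 0.658 for complex IV and 0.702 for complex V. As a sum, the mitochondrial genes of complex V kept a higher share than its nuclear genes. They are only mt-Atp6 and mt-Atp8, which went opposite ways, with log2 changes of -0.70 and 0.85, so mt-Atp8 raised that sum in Ly6G+ cells. Within complex V the ratio of mitochondrial to nuclear TPM was 0.933 and 0.843 in the HSCP libraries against 1.07 to 1.27 in the Ly6G+ libraries. For complex I the same ratio went the other way, 2.30 and 2.05 in HSCP against 1.71 to 1.93 in Ly6G+. No test was made on such sums, and the values of the copies Gm10222, Gm10231, Gm10175 and Ndufb4c were not added to them. Over complexes I, III, IV and V together the ratio was 2.07 and 1.76 in HSCP and 1.98 to 2.18 in Ly6G+ libraries, so the populations overlapped.

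**Figure D2:**
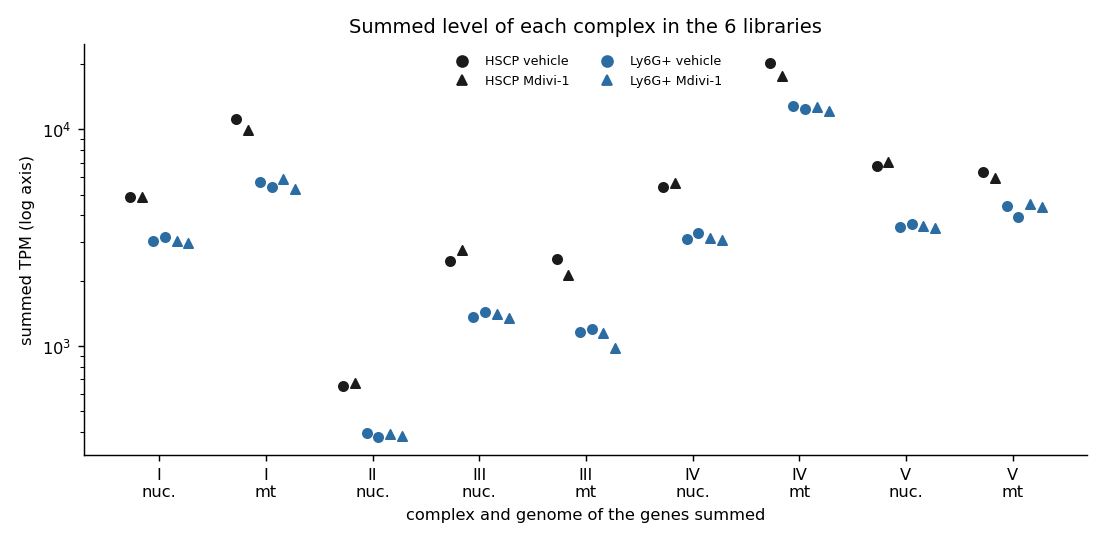
Summed TPM (log axis) of the genes of each complex, nuclear (nuc.) and mitochondrial (mt) apart, with 1 point per library. In all 9 groups both HSCP libraries lie above all 4 Ly6G+ libraries.

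The test between populations asked which single genes differ, across all 6 libraries with treatment as a covariate. Of the 98 genes, 93 passed the filter of 1 TPM in at least 2 libraries. Atp5g2, Cox8b and Cox8c were listed at 0 throughout, and Cox7b2 and Ndufa4l2 stayed below 1 TPM in every library. Of the 93, 84 were lower in Ly6G+ cells, 2 were higher and 7 were not called (limma, Benjamini-Hochberg adjusted p under 0.05 over all genes). Among all 12338 genes tested, 50.3% were called lower and 22.2% higher, so most genes differed and lower was the commoner direction. The median log2 change on the TPM + 1 scale was -0.81 for the 93 genes and -0.35 for all genes tested, and 82 of the 93 lay below the latter. In 85 of the 93 every Ly6G+ library was below both HSCP libraries, against 52.5% of all genes tested. With TPM rescaled by median of ratios, which moved the median of all genes to -0.03, 63 were lower and 7 higher, against 34.7% and 33.1% of all genes. With upper-quartile scaling, where that median was -0.07, 69 were lower and 5 higher, against 36.9% and 31.7%. The direction of 8 genes turned under the former and of 7 under the latter, so directions are those of TPM as deposited unless a scaling is named.

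**Figure D3:**
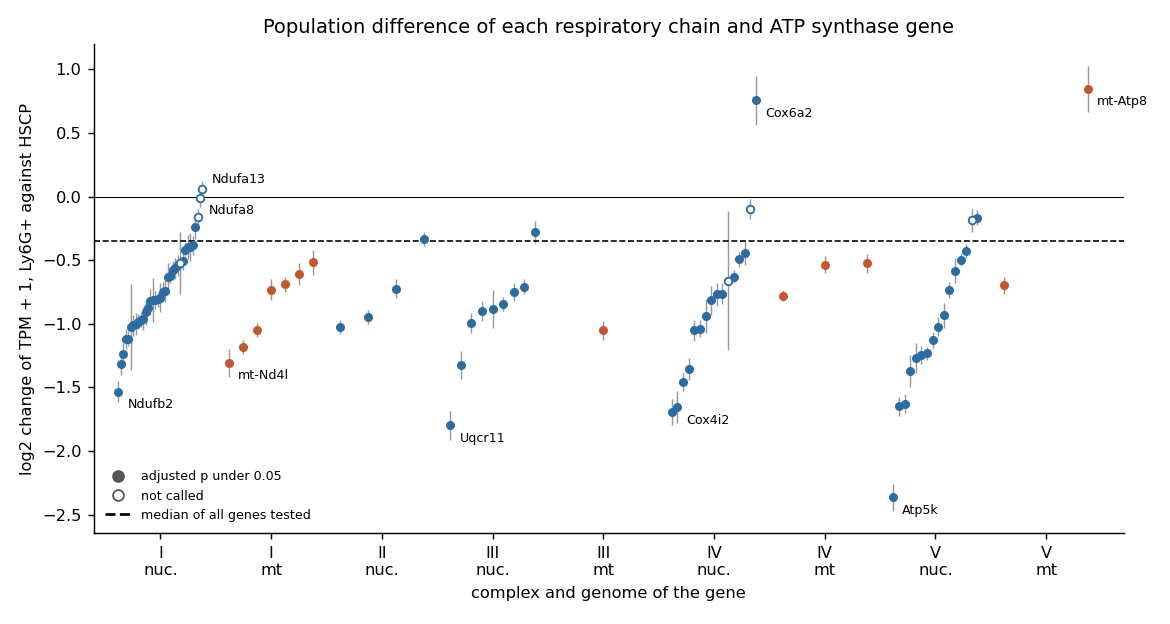
Log2 change of TPM + 1 in Ly6G+ cells against HSCPs for each of the 93 genes tested, by complex and genome, with bars of 1 standard error. Filled points passed an adjusted p of 0.05, open points did not, and the dashed line is the median of all 12338 genes tested at -0.35. Most points lie below that line, with Atp5k lowest at -2.36 and Cox6a2 and mt-Atp8 above 0.

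Complex I showed a called decrease in 7 of 7 nuclear core genes, which encode its peripheral arm. Ndufv1, the flavoprotein that takes electrons from NADH, read 113 and 116 TPM in HSCP and 50.4 to 54.2 TPM in the 4 Ly6G+ libraries, a log2 change of -1.12 ± 0.0563 (SE, adjusted p 1.51e-05). Ndufs1, the largest iron-sulfur subunit, changed least of the 7, at -0.50 ± 0.07, and was not called after median-of-ratios scaling (-0.15, adjusted p 0.102). Of the 28 accessory genes 24 fell and 4 were not called. After median-of-ratios scaling 16 were lower and 3 higher, and after upper-quartile scaling 18 and 2. Ndufb2 fell furthest. Its level was 122 TPM in both HSCP libraries and 37.1 to 44.7 TPM in Ly6G+ libraries, a log2 change of -1.53 ± 0.0805 (adjusted p 1.65e-05). Ndufc2 changed by -1.31 and Ndufa5 by -1.24. Ndufa3 and Ndufb7, the most abundant nuclear complex I transcripts, averaged 376 and 250 TPM in HSCP and changed by -0.74 and -0.39, of which the latter was lost under both rescalings (-0.03 and -0.08).

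Ndufa13 and Ndufa8 stood apart within complex I. Ndufa13, also known as Grim19, was at 67.1 and 66.5 TPM in HSCP, 66.8 and 69.8 TPM in Ly6G+ vehicle and 73.7 and 69.1 TPM in Ly6G+ Mdivi-1. Ndufa8 was at 136 and 133 TPM in HSCP, 121 and 132 TPM in Ly6G+ vehicle and 140 and 143 TPM in Ly6G+ Mdivi-1. Both genes overlapped between populations, with log2 changes of 0.06 ± 0.0627 and -0.01 ± 0.0713. After either rescaling both were called higher, Ndufa8 at 0.35 and 0.30. Ndufa13 overlaps a gene on the opposite strand, Tssk6, which shares 28.3% of its 31-base words and was at 2.90 to 10.2 TPM. Reads of the shared stretch cannot be told apart without strand, which no source states. Ndufs4 and Ndufc1 were the other accessory genes not called, at -0.16 ± 0.0638 and -0.52 ± 0.246. Ndufs4 turned to 0.20 and was called higher after median-of-ratios scaling.

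Complex II fell in 4 of 4 genes. Sdha, the flavoprotein that oxidizes succinate, was at 213 and 226 TPM in HSCP and 107 to 117 TPM in Ly6G+ cells, a log2 change of -0.95 ± 0.0581 (adjusted p 2.67e-05). The membrane anchors Sdhc and Sdhd changed by -0.72 and -1.02. Sdhb, the iron-sulfur subunit, was at 143 and 144 TPM in HSCP and 112 to 117 TPM in Ly6G+ cells. That difference of -0.33 ± 0.0535 was close to the median of all genes tested, -0.35, and after median-of-ratios scaling it was 0.03, which left 3 of 4 genes lower.

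Complex III fell in 9 of 9 nuclear genes. Uqcr11, its smallest accessory subunit, was at 310 and 325 TPM in HSCP, 87.6 and 105 TPM in Ly6G+ vehicle and 93.7 and 77.6 TPM in Ly6G+ Mdivi-1. Every Ly6G+ library was far below both HSCP libraries, and the log2 change was -1.80 ± 0.115 (adjusted p 2.99e-05). Cyc1, the heme protein cytochrome c1, went from 176 and 205 TPM to between 67.2 and 86.8 TPM, a change of -1.32 ± 0.113 (adjusted p 8.91e-05). Uqcrfs1, the Rieske iron-sulfur protein, changed by -0.99, and Uqcr10 and Uqcrh, the most abundant of the complex, by -0.75 and -0.84. Uqcrc2, a core protein, changed least, by -0.28 ± 0.0862, and was 0.0864 after median-of-ratios scaling, which left 8 of 9 genes lower.

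Complex IV fell in 11 of 12 ubiquitous nuclear genes, with Cox7a2 not called. After median-of-ratios scaling 9 of 12 were lower and Cox7a2 was called higher (0.27, adjusted p 0.0417), and after upper-quartile scaling 10 were lower and none higher. Ndufa4 fell furthest among them, from 639 and 664 TPM in HSCP to between 223 and 260 TPM, a log2 change of -1.46 ± 0.0708 (adjusted p 1.35e-05). Cox5a changed by -1.36, Cox7b by -1.05 and Cox6b1 by -1.04. Cox4i1 and Cox6a1, the most abundant, averaged 822 and 698 TPM in HSCP and changed by -0.49 and -0.82. Cox4i1 was not called after median-of-ratios scaling (-0.13, adjusted p 0.0702). Cox7a2 was at 165 and 167 TPM in HSCP and ranged from 136 to 172 TPM in Ly6G+ libraries, which overlapped. Cox7a2l, known as a supercomplex assembly factor, changed by -0.44 and was not called after either rescaling (-0.08 and -0.13).

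Several complex IV subunits have isoforms known from other tissues, and these were rare in marrow. Cox8b and Cox8c, of heart and muscle and of testis, were listed at 0, so Cox8a held the whole of its family. Cox4i2, the lung isoform of Cox4, was at 6.20 and 8.66 TPM in HSCP, 1.40 and 1.51 TPM in Ly6G+ vehicle and 1.89 and 1.81 TPM in Ly6G+ Mdivi-1, a log2 change of -1.66 ± 0.125 (adjusted p 5.52e-05). Cox4i1 exceeded it 128- and 98.5-fold in HSCP and 298- to 413-fold in Ly6G+ cells. Cox6b2, the testis isoform, went from 14.4 and 14.5 TPM to between 3.38 and 4.19 TPM, a change of -1.69 ± 0.104 (adjusted p 2.68e-05), which is larger than the -1.04 of its partner Cox6b1. Cox6a2, the heart and muscle isoform, went up. It read 1.40 and 2.33 TPM in HSCP, 3.57 and 4.65 TPM in Ly6G+ vehicle and 3.69 and 3.28 TPM in Ly6G+ Mdivi-1, a change of 0.76 ± 0.191 (adjusted p 0.0109). All 4 Ly6G+ libraries were above both HSCP libraries, yet Cox6a2 stayed below 1% of the Cox6a family in every library. Without the HSCP vehicle library, or with Mdivi-1 libraries alone, Cox6a2 was not called. Cox7a1, the heart and muscle isoform of Cox7a, was scattered from 0.977 to 5.83 TPM and was not called.

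ATP synthase fell in 15 of 16 nuclear genes tested, against 11 lower and 1 higher after median-of-ratios scaling and 12 and 1 after upper-quartile scaling. All 5 genes of the F1 catalytic head fell: Atp5b, the catalytic beta subunit and the most abundant nuclear gene of the set, was at 1282 and 1363 TPM in HSCP and 592 to 699 TPM in Ly6G+ cells, a log2 change of -1.02 ± 0.0752 (adjusted p 5.05e-05). After median-of-ratios scaling 4 of the 5 were lower, without Atp5c1, the gamma subunit (-0.13, adjusted p 0.0754). Of the membrane part and stalks 9 of 10 tested genes fell, and 6 of 10 were lower after either rescaling. Atp5k, subunit e, which joins ATP synthases into dimers, showed the largest fall of all 93 genes. Its level was 269 and 271 TPM in HSCP, 55.9 and 62.9 TPM in Ly6G+ vehicle and 46.3 and 43.5 TPM in Ly6G+ Mdivi-1. HSCPs averaged 5.18 times the Ly6G+ level, and the log2 change was -2.36 ± 0.107 (adjusted p 1.14e-05).

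The c subunit of the rotor has 3 genes that encode the same mature protein. Atp5g1 was at 251 and 295 TPM in HSCP and 78.1 to 96.8 TPM in Ly6G+ cells, and Atp5g3 at 483 and 517 TPM and 150 to 174 TPM. Their log2 changes were -1.65 and -1.63, and HSCPs averaged 3.16 and 3.10 times the Ly6G+ level. With the values of Gm10231 and Gm10175 added to Atp5g2, an alternative chosen after seeing the data, that family changed by -1.77 ± 0.108 (adjusted p 2.57e-05). Such pooling changed Ndufb4 from -1.12 alone to -0.22 (adjusted p 0.0878) with Ndufb4c, so its call depended on leaving the copy out. At the other end of complex V stood Atp5f1, subunit b of the stator stalk, at -0.17 ± 0.0589, and Atp5j, coupling factor F6, at -0.19 ± 0.0936, which was not called. Atp5f1 was 0.20 after median-of-ratios scaling and was then called higher, Atp5j turned to 0.18, and Ndufa6 of complex I likewise turned from -0.24 to 0.12. Atp5mpl, a small proteolipid among the 2 most abundant nuclear genes of the complex, changed by -0.93.

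**Figure D4:**
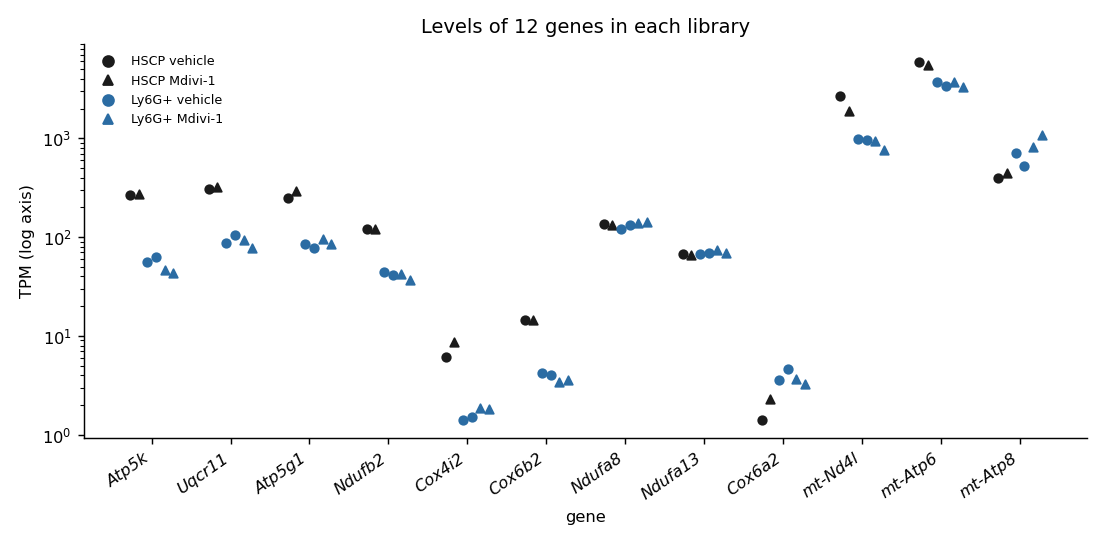
TPM (log axis) of 12 genes in each of the 6 libraries. Atp5k, Uqcr11 and Atp5g1 are lower in every Ly6G+ library, Ndufa8 and Ndufa13 overlap between populations, and Cox6a2 and mt-Atp8 are higher in every Ly6G+ library.

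By mean TPM over the 6 libraries, 10 mitochondrial genes were above every nuclear gene of the set, while mt-Atp8, mt-Nd2 and mt-Nd5 were below Atp5b. mt-Co1, the catalytic subunit of cytochrome c oxidase, was at 8076 and 6610 TPM in HSCP and 4920 to 5219 TPM in Ly6G+ cells, a log2 change of -0.54 ± 0.0674. mt-Co2 and mt-Co3 changed by -0.52 and -0.78. The calls of mt-Co1 and mt-Co2 depended on the scale. With median of ratios they were at -0.17 (adjusted p 0.119) and -0.16 (adjusted p 0.164), and with upper quartile their adjusted p was 0.0532 and 0.0746. The 7 mitochondrial complex I genes, which form the proton-pumping membrane arm, were called lower on the deposited scale, from -0.52 for mt-Nd6, the one member encoded on the minus strand, to -1.31 for mt-Nd4l. In between were mt-Nd4 at -0.61, mt-Nd5 at -0.69, mt-Nd2 at -0.73, mt-Nd1 at -1.05 and mt-Nd3 at -1.18. After median-of-ratios scaling mt-Nd4 (adjusted p 0.0745) and mt-Nd6 (adjusted p 0.262) were not called, and after upper-quartile scaling mt-Nd6 was not (adjusted p 0.139). Of the 13 mitochondrial genes 12 were lower as deposited, 8 after median-of-ratios and 9 after upper-quartile scaling. mt-Cytb, cytochrome b, changed by -1.05 and mt-Atp6, the a subunit through which protons flow, by -0.70. The changes of the mitochondrial genes were unequal. They differed also within 2 pairs whose annotated positions overlap, mt-Nd4l with mt-Nd4 and mt-Atp8 with mt-Atp6. Whether this lies in the RNA or in how reads were divided was not tested.

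mt-Atp8, which encodes a small stalk subunit and overlaps mt-Atp6, was the exception. It was at 397 and 450 TPM in HSCP, 713 and 527 TPM in Ly6G+ vehicle and 821 and 1085 TPM in Ly6G+ Mdivi-1. Every Ly6G+ library was above both HSCP libraries, and the log2 change was 0.85 ± 0.18 (adjusted p 0.00603). Over both treatments together the Ly6G+ libraries were scattered, at 787 TPM ± 233 (SD, n = 4), whereas mt-Atp6 was at 3522 TPM ± 213 (SD, n = 4). These SDs include any difference between the arms. Without the HSCP Mdivi-1 library, or with vehicle libraries alone, mt-Atp8 was not called. At 204 bases its transcript is the shortest of the 98 genes, and the effect of its length and of the stretch shared with mt-Atp6 on its TPM was not tested.

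Size of change had little relation to abundance or to how unique a sequence is. Across the 80 nuclear genes tested, Pearson's r of the log2 change between populations was 0.01 with mean TPM, -0.11 with the percentage of unique 31-base words and -0.05 with transcript length. These are descriptions across genes that share libraries.

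Promoters were read from RefSeq windows on GRCm38.p6 that run from 250 bases before to 50 after a gene's start. Of the 85 nuclear genes 66 matched by symbol, with 71 windows. Letters known from respiratory gene promoters were searched on both strands: the palindromic NRF1 site, whose letters are the capitals of the Atp5k sequence that follows, CCGGAAGT, bound by ETS factors such as GABP, and AAGATGGCG, bound by YY1. They were found in 7.04%, 7.04% and 9.86% of the 71 windows and in 0.971%, 3.89% and 1.40% of all 32851 windows. CCAAT was found in 42.3% of the 71 and in 37.4% of all, and TATAAA in 11.3% and 13.6%. None of these 5 strings contains another, and a match describes the sequence only. Shown are the bases before the RefSeq start of the 2 genes with the largest falls and of Cox7a2. The latter was not called and holds none of the 5. All 3 are on the minus strand and are written in the direction of the gene, with matches in capitals. Atp5k is at chr5:108434440-108434649, ending at its match, Uqcr11 at chr10:80406822-80407071 and Cox7a2 at chr9:79759854-79760103. In the GENCODE annotation used for the other gene positions these genes begin at 108434448, 80406830 and 79759878. The last bases of each stretch, most of the Atp5k match included, therefore lie inside the gene by that annotation.
Atp5k: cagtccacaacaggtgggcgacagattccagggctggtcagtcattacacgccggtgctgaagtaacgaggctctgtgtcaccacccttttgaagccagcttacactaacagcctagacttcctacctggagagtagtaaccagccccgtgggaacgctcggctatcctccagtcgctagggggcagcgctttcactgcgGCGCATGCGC
Uqcr11: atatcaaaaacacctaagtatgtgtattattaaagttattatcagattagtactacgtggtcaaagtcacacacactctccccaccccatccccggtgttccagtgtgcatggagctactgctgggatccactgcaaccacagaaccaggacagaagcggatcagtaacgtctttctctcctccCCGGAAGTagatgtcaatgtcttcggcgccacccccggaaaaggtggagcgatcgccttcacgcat
Cox7a2: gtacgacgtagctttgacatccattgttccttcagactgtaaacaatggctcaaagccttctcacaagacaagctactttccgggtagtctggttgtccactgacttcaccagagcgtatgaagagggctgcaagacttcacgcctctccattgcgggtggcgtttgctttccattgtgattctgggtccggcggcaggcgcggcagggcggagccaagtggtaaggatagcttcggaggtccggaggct

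The NRF1 site was present before or near the start of Atp5k, Cox6a1, Ndufa11 and Uqcrc1, which changed by -2.36, -0.82, -0.81 and -0.90 between populations, and of Atp5g2. The ETS string was present in Uqcr11, Uqcrh, Ndufs3, Cox8a and Atp5h, which changed by -1.80, -0.84, -0.82, -0.77 and -0.43, the last not called after either rescaling. The YY1 string was present in Ndufc1, Ndufs4 and Atp5j, which were not called, and in Ndufa9, Ndufs7, Ndufs6 and Atp5j2, which changed by -0.54 to -0.81. Of the latter, Atp5j2 was not called after either rescaling and Ndufs6 was not called after median-of-ratios scaling.

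Genes that build and supply the complexes formed 11 further lists, of which Pet117, Mterf1b and Fastkd4 had no row under that symbol. Lower calls in Ly6G+ cells, which 50.3% of all genes had, numbered 11 of 16 tested for complex I, 3 of 4 for complex II, 4 of 6 for complex III, 16 of 20 for complex IV and 3 of 3 for ATP synthase, with none higher on the deposited scale. After median-of-ratios scaling they numbered 9, 2, 3, 10 and 2, where 34.7% of all genes were lower and 33.1% higher. After upper-quartile scaling they numbered 10, 3, 3, 10 and 2, where 36.9% were lower and 31.7% higher. Under both there was 1 higher call each for complexes I, II and IV. Ndufaf2 and Ndufaf6, factors of complex I, changed by -2.21 and -1.71, and Sdhaf4 and Sdhaf1, factors of complex II, by -2.06 and -1.43. For complex III, Uqcc2 and Uqcc1 changed by -1.48 and -0.97. For complex IV, Sco2, a copper chaperone, changed by -2.32 and Coa7 by -1.49. For ATP synthase, Atpaf2 changed by -1.14 and Tmem70 by -0.80. Of genes that copy and transcribe mitochondrial DNA 9 of 15 fell, among them Top1mt at -1.92 and Twnk, the mitochondrial helicase, at -1.42. Polg, the mitochondrial DNA polymerase, was not called at -0.01. On the deposited scale the share of this list is near that of all genes. After either rescaling 9 were lower and 5 higher, against 34.7% and 36.9% of all genes lower and 33.1% and 31.7% higher. Of genes for mitochondrial RNA processing and stability 12 of 13 fell, among them Fastkd3 at -1.40 and Fastkd2 at -1.34. Lrpprc, which stabilizes mitochondrial mRNA, changed by -1.13, while its partner Slirp was not called at -0.39. After either rescaling 8 of these 13 were lower and none higher.

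Nuclear regulators of respiration genes did not stand apart from all genes: 5 of 8 were called lower, with a median of -0.32 against -0.35. After median-of-ratios scaling 2 were lower and 4 higher, against 34.7% and 33.1% of all genes. After upper-quartile scaling 2 were lower and 2 higher, against 36.9% and 31.7%. The coactivators Pprc1 and Ppargc1b changed by -1.37 and -1.04. The factors Nrf1 and Gabpa were not called, at -0.12 and -0.10, and Ppargc1a did not pass the filter. Of genes for cytochrome c and coenzyme Q 10 of 14 fell, among them Coq2 at -1.64 and Coq7 at -1.36, and Coq10b rose by 0.59. After either rescaling 10 were again lower and 1 higher. Of other dehydrogenases that feed coenzyme Q 5 of 7 fell, and 4 after either rescaling, led by Prodh at -1.75 and Etfb at -1.64. The remaining 2 rose: Sqor, which oxidizes sulfide, by 1.54, and Gpd2, which takes electrons from glycerol 3-phosphate, by 0.38. Of carriers 3 of 4 fell, including the adenine nucleotide carriers Slc25a4 at -1.18 and Slc25a5 at -1.14, while Ucp2, an uncoupling protein homolog, rose by 0.61.

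Mdivi-1 against vehicle in Ly6G+ cells asked whether a compound aimed at mitochondrial fission altered these transcripts. Of the 93 genes tested 1 was called lower and 0 higher (limma, adjusted over all 11775 genes tested), against 4.24% lower and 2.46% higher among all genes. At an unadjusted p under 0.05 there were 13 of 93, against 25.7% of all genes. Log2 changes were within 0.2 of 0 for 74 of the 93 and within 0.5 for 91. The median was -0.02 for the 93 and -0.05 for all genes. Nuclear sums in the Mdivi-1 arm were 0.976 times those in the vehicle arm, and mitochondrial sums were 0.999 times.

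Ndufv3, an accessory subunit beside the NADH site of complex I at chr17:31520115-31531331, was the gene called. It was at 116 and 122 TPM in vehicle and 96.8 and 97.1 TPM in Mdivi-1, and the arms did not overlap. The log2 change was -0.29 ± 0.06 (adjusted p 0.0498), just under the threshold, and the call was lost in 11 of 14 alternatives, leaving out any library included. In HSCPs its ratio was -0.03. Atp5k was lower by a similar margin, 46.3 and 43.5 against 55.9 and 62.9 TPM, with a log2 change of -0.39 that was not called (adjusted p 0.0618). Atp5e, the epsilon subunit of the F1 head, had a value of -0.22 (adjusted p 0.0766), and Atp5j had 0.30 (adjusted p 0.0738). The arms did not overlap in the lower direction for 24 genes, against 36.7% of all genes tested, and in the higher direction for 19, against 21%. After median-of-ratios and upper-quartile scaling 0 were called lower, against 2.73% and 3.37% of all genes. Higher calls were 1 and 0, against 4.44% and 3.14%, and the 1 was Atp5j at 0.40 (adjusted p 0.0377).

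The most positive values belonged to genes with wide spread between libraries. Ndufa12, an accessory complex I subunit, was at 3.03 and 2.69 TPM in vehicle and 3.83 and 8.77 TPM in Mdivi-1, a change of 0.83 ± 0.34 (adjusted p 0.213). The second Mdivi-1 library alone was far above the others. mt-Atp8 changed by 0.62 ± 0.20 (adjusted p 0.141). Its arms did not overlap, at 713 and 527 TPM in vehicle and 821 and 1085 TPM in Mdivi-1. None of the 12 other mitochondrial genes exceeded 0.19 in size, and mt-Co1, mt-Co2 and mt-Co3 were at -0.04, -0.01 and -0.02. In the further lists, Sdhaf4 fell from 6.00 and 5.09 TPM to 3.10 and 2.73 TPM (log2 change -0.74, adjusted p 0.0494), and Slirp, which binds mitochondrial mRNA, rose from 26.5 and 26.6 TPM to 35.3 and 38.2 TPM (0.46, adjusted p 0.0335). No other gene of the 11 lists was called on the deposited scale. Over 14 alternatives the adjusted p of Slirp ran from 0.0221 to 0.168. That of Sdhaf4 ran from 0.0487 to 0.186 over 13, and both calls were lost when any 1 library was left out.

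Markers of other cell types moved with treatment in these sorts. B cell markers (8 of 8 detected) summed to 115 and 116 TPM in Ly6G+ vehicle and to 21.1 and 20.8 TPM in Mdivi-1. Megakaryocyte markers (7 of 7) summed to 255 and 253 against 117 and 101 TPM, and basophil and mast cell markers (5 of 5) to 484 and 490 against 162 and 171 TPM. No marker of these lists was at 0 throughout a population. Their part in the values above was not tested.

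In HSCPs, Mdivi-1 and vehicle had 1 library each, so ratios are given with no test. Of the 98 genes 88 had a mean of at least 10 TPM. Past a log2 ratio of 0.5 in size, 0 were higher and 1 was lower, against 1.5% and 2.33% of the 7987 genes at that level. The lower one was mt-Nd4l, at 2661 TPM in vehicle and 1873 TPM in Mdivi-1, a log2 ratio of -0.51, and Gm10222 repeats it. The nuclear genes were near all genes: 53 of 75 had a ratio above 0, with a median of 0.04, which is also the median of all genes. Of the 13 mitochondrial genes, 10 had a ratio below 0, with a median of -0.13. Of all genes at that level 40.8% were below 0. Summed mitochondrial TPM was 0.884 times the vehicle value and summed nuclear TPM was 1.04 times.

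Within the nuclear genes, 8 of 9 of complex III and 7 of 7 core genes of complex I were above 0. Only 12 of 27 accessory genes of complex I were, with a median of -0.01. For complexes II, IV and V the counts were 3 of 4, 11 of 13 and 12 of 15. Among all 7987 genes compared, 4725 were above 0. Genes of a group share the same pair of libraries, so these counts are no test. Uqcrq, a complex III subunit, had the highest ratio of the nuclear genes, 0.43, with 315 TPM in vehicle and 426 TPM in Mdivi-1. Ndufa11 followed at 0.39, with 24.5 and 32.4 TPM. Complex III nuclear genes summed to 2456 TPM in vehicle and 2758 TPM in Mdivi-1, while mt-Cytb went from 2519 to 2121 TPM. mt-Co1, mt-Nd4 and mt-Co2 had ratios of -0.29, -0.28 and -0.26, whereas mt-Nd1 and mt-Nd3 were at 0.05 and 0.02. In the same pair neutrophil markers summed to 100422 and 91749 TPM, with a median log2 ratio of -0.20. Ly6g, 1 of these markers, was at 187 and 90.1 TPM. Megakaryocyte markers summed to 328 and 164 TPM and eosinophil markers to 646 and 359 TPM. Their part in these ratios was not tested.

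**Figure D5:**
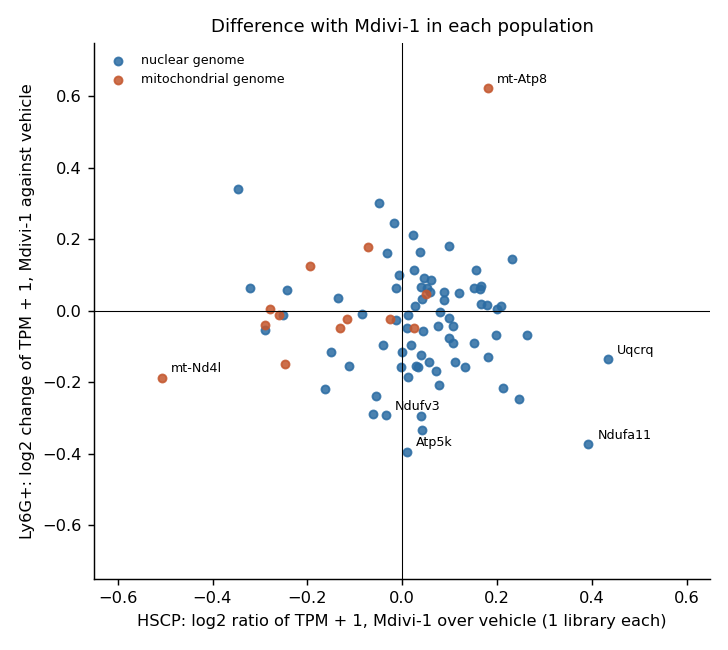
Log2 change with Mdivi-1 in Ly6G+ cells against the log2 ratio in HSCPs for the genes with a mean of at least 10 TPM in HSCPs that were tested in Ly6G+ cells, coloured by genome. Most genes lie within 0.2 of 0 on both axes, mt-Nd4l lies lowest on the HSCP axis at -0.51 and mt-Atp8 highest on the Ly6G+ axis at 0.62.

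Whether the treatment difference itself differed between populations was tested with an interaction term, taking the lone HSCP libraries to vary like the Ly6G+ libraries. Of the 93 genes 0 were called, and of all 12338 genes 0 (0.0%) were called. At an unadjusted p under 0.05 there were 11 of 93, against 11.3% of all genes. The smallest unadjusted p-values belonged to Ndufa11, with an interaction of -0.77 (adjusted p 0.245), and Ndufs7, a quinone-site subunit, with -0.49 (adjusted p 0.288). A difference between populations in the response of these genes was therefore not detectable with this design.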

How the data were processed

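The authors deposited 1 table of 28987 genes in TPM for 6 libraries. They name bcl2fastq, CASAVA 1.8, kallisto and build mm10, per the submitters' processing notes. A kallisto version, annotation or strand setting is not given there. This tool divides reads between similar transcripts, which bears on genes with near-identical copies. Identifiers were matched to GENCODE M21 (27475 of 28987), whose assembly is GRCm38. Of 99 protein-coding matches to the name rule 98 had a row. Uniqueness was counted as 31-base words found in no other M21 gene.

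Values were transformed as log2(TPM + 1) and fitted in R 4.3.3 by limma 3.58.1, whose prior was trended and robust. Genes entered a fit if 2 or more of its libraries reached 1 TPM. P-values were adjusted by Benjamini-Hochberg over all genes tested, with a threshold of 0.05. Fold changes on this scale understate changes of low genes. The treatment fit used the 4 Ly6G+ libraries (2 residual degrees of freedom), the population fit all 6 with treatment as a covariate (3), and the interaction fit 4 group means (2). TPM holds no depth, so counting error could not be given. The fits were also run on data simulated from the same model with independent noise, which cannot show whether that model holds for these libraries. Tables and figures used Python 3.11.15, pandas 2.3.3 and matplotlib 3.10.9.

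The members and lists were chosen with earlier results of these data known. Genes named by rule were the mitochondrial genes, complex II, isoform families, members called with treatment, and Dnm1l, Kit and Ly6g. For complexes I, III, IV and V the rule added the 2 nuclear genes of highest mean TPM and, per comparison, the 2 largest called changes in each direction relative to the median of all genes. It also took the 2 largest called changes of each further list. Other genes named were chosen after their values were seen. Alternatives changed the pseudocount, filter, scaling, prior, covariate and libraries.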

Additional observations from a re-analysis of the deposited data

How the results depend on the processing

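Between populations the count of lower genes stayed within 1.5 times of 84 in every alternative run, from 63 to 85. The count of higher genes was 1 with a mean of at least 5 TPM, 1 with vehicle libraries alone and 1 with Mdivi-1 libraries alone, 7 with median-of-ratios scaling and 5 with upper-quartile scaling, and 1 to 2 when leaving out 1 library. Directions turned for 8 genes with median-of-ratios scaling, Atp5f1 (0.20), Atp5j (0.18), Cox7a2 (0.27), Ndufa6 (0.12), Ndufa8 (0.35), Ndufs4 (0.20), Sdhb (0.03) and Uqcrc2 (0.0864). They turned for 7 with upper-quartile scaling, Atp5f1 (0.15), Atp5j (0.13), Cox7a2 (0.22), Ndufa6 (0.0722), Ndufa8 (0.30), Ndufs4 (0.15) and Uqcrc2 (0.0384). Lower calls lost numbered 21 and 15. The Ly6G+ to HSCP ratio of summed TPM was 0.546 for nuclear genes with TPM outside the mitochondrial genome. It was 0.724 nuclear and 0.796 mitochondrial with median-of-ratios scaling, and 0.700 and 0.769 with upper-quartile scaling.

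For Mdivi-1 in Ly6G+ cells, 0 genes were lower with a pseudocount of 0.1, no filter, median-of-ratios or upper-quartile scaling, TPM outside the mitochondrial genome, or no trend or robust prior, and 0 when leaving out any library. With a mean of at least 5 TPM 2 were lower, Atp5k and Ndufv3. Atp5j was the 1 gene higher with median-of-ratios scaling, and leaving out 1 library gave 0 to 1 higher, Ndufa12 without the first Mdivi-1 library. With the replicate block 0 were lower. Same-numbered libraries had deviations correlated at -0.05 over 8832 genes and the labels state no shared mouse, so the numbers were not taken as pairs. The interaction called 0 in each alternative.

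In HSCPs, 0 genes were lower past a ratio of 1, 2 higher and 3 lower past 0.3, and 2 lower at a mean of at least 1 TPM. The cause of these shifts was not tested. TPM without read totals limits what can be said of genes below about 5 TPM, such as Cox6a2 and Cox7a1.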
